A study of Rattus norvegicus with 16 samples.

Results

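The genes described here are 6 genes of the gastric chief cell that the array names Pgc, Pga5, Gif, Lipf, Chia and Bhlha15. They were found by their gene name in the scanner output. Each had 1 probe of 60 bases, printed at 2 spots of every array, so that they were 6 of 26115 gene names and 6 of 30367 probes. A filter on dim signals kept 21174 probes, 5 of the 6 among them, and Lipf did not pass.

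Suckling Wistar rats (Wistar Han in the methods) received obestatin, a peptide cut from the precursor of ghrelin, by the enteral route at 250 nmol/kg body weight (the OH group, NOH in the labels), or saline (the control group, C). Both were given 2 times a day for 7 days from day 14 of life, and the tissues were taken on day 21, before weaning. Of the 16 arrays 4 were of C stomach, 4 of OH stomach, 4 of C middle intestine and 4 of OH middle intestine. Every array carried the tissue of 1 rat in Cy5 against a common pool of RNA from the rats of the study in Cy3, and all levels below are log2 ratios of Cy5 to Cy3. A group was 4 rats of litters assigned as a whole to 1 treatment, the labels do not tie rats to litters, and whole tissue was used, so that a lower ratio from fewer cells of a type cannot be told apart from less RNA per cell.

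Chief cells (zymogenic cells) lie at the base of the glands in the corpus of the stomach and release digestive enzymes from granules stored under the apical membrane. In rodents they also make intrinsic factor, which in humans comes from parietal cells. Gland bases mature late in the rat, and during suckling the stomach is known for milk clotting by chymosin, a relative of pepsin, before the adult pepsinogens take over at weaning.

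The 6 probe sequences are printed because each gene rests on 1 of them; they are taken from the scanner files, in the direction in which the array lists them, with positions on the rat build rn4 as the files give them. Whether a probe lies in an exon or an untranslated part was not analysed here. The probe of Pgc lies at chr9:8723638-8723697 on the minus strand and that of Pga5 at chr1:213163951-213164010 on the minus strand. The probe of Gif lies at chr1:214533519-214533578 on the plus strand, and RefSeq now names this gene Cblif. The probe of Lipf lies at chr1:237856462-237856521 on the plus strand, that of Chia at chr2:201431620-201431679 on the plus strand, and that of Bhlha15 at chr12:10747909-10747968 on the minus strand. By accession all 6 matched a gene of the RefSeq table.
Pgc: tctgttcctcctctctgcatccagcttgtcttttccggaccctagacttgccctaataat
Pga5: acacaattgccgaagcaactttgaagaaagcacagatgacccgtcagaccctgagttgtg
Gif: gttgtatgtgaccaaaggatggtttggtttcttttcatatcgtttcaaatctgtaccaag
Lipf: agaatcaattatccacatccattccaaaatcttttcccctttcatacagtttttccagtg
Chia: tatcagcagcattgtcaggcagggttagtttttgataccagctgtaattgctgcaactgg
Bhlha15: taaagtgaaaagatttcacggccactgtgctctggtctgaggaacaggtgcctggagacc

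Each group lay on a slide of its own, so that slide cannot be told apart from treatment, nor from tissue. The 2 slides of OH rats were scanned on a different occasion from the 2 slides of C rats, so that scan and treatment cannot be told apart either. The median raw Cy3 signal was 341 to 399 on the OH arrays and 188 to 195 on the C arrays, although the pool was the same. Between 69.4% and 77.6% of spots were well above background in Cy5. Marker lists went with the labelled tissue: all 4 parietal cell genes passed the test as higher in stomach among C rats (median log2 difference 5.67), while 9 of 11 enterocyte genes were called lower and 1 higher (median -2.69). Of all probes 22.7% were called higher in C stomach and 44.9% in either direction. Slc26a7 of the parietal list was well above background on no intestinal array, so the filter favoured its direction. The intestinal pieces were not all alike. Pdx1, used below with Gast to mark the antrum, was at 1.67 on OH middle intestine 1, above every stomach array. On the other intestinal arrays it was at -2.99 to -1.91. The mean of the pancreatic acinar list was -1.72 on OH middle intestine 4 and -3.78 to -3.32 on the other intestinal arrays. The stomach pieces also differed among themselves. Gast, the gene of gastrin, which marks the antrum, had log2 ratios of 4.51, -2.01, 4.26 and 4.73 in the C stomach arrays and 3.82, 3.34, 3.92 and -2.02 in the OH stomach arrays, so that 1 array of each group (C stomach 2 and OH stomach 4) stood no higher than the intestinal arrays, which lay between -1.79 and -1.02.

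Stomach against middle intestine was compared to place the 6 genes. In C rats all 5 genes that passed the filter were higher in stomach (5 of 5 called by limma at a Benjamini-Hochberg adjusted p under 0.05), against 22.7% of all probes called higher in stomach and 44.9% called in either direction. The median of the 5 log2 differences was 4.80, and the median of all probes was -0.01. In OH rats 5 of 5 were again higher in stomach, against 19.2% of all probes (38.2% in either direction), with a median of 4.66. Chia stood 2nd and Gif 10th among 21174 probes ranked by the C difference, and 1st and 2nd in OH rats. The stomach arrays stood above all intestinal arrays of the same treatment for 5 of 5 genes, as for 21.6% of all probes in C and 17.6% in OH rats. Chia passed the filter only through the stomach groups, so the filter itself favoured its direction in these counts and ranks.

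**Figure D1:**
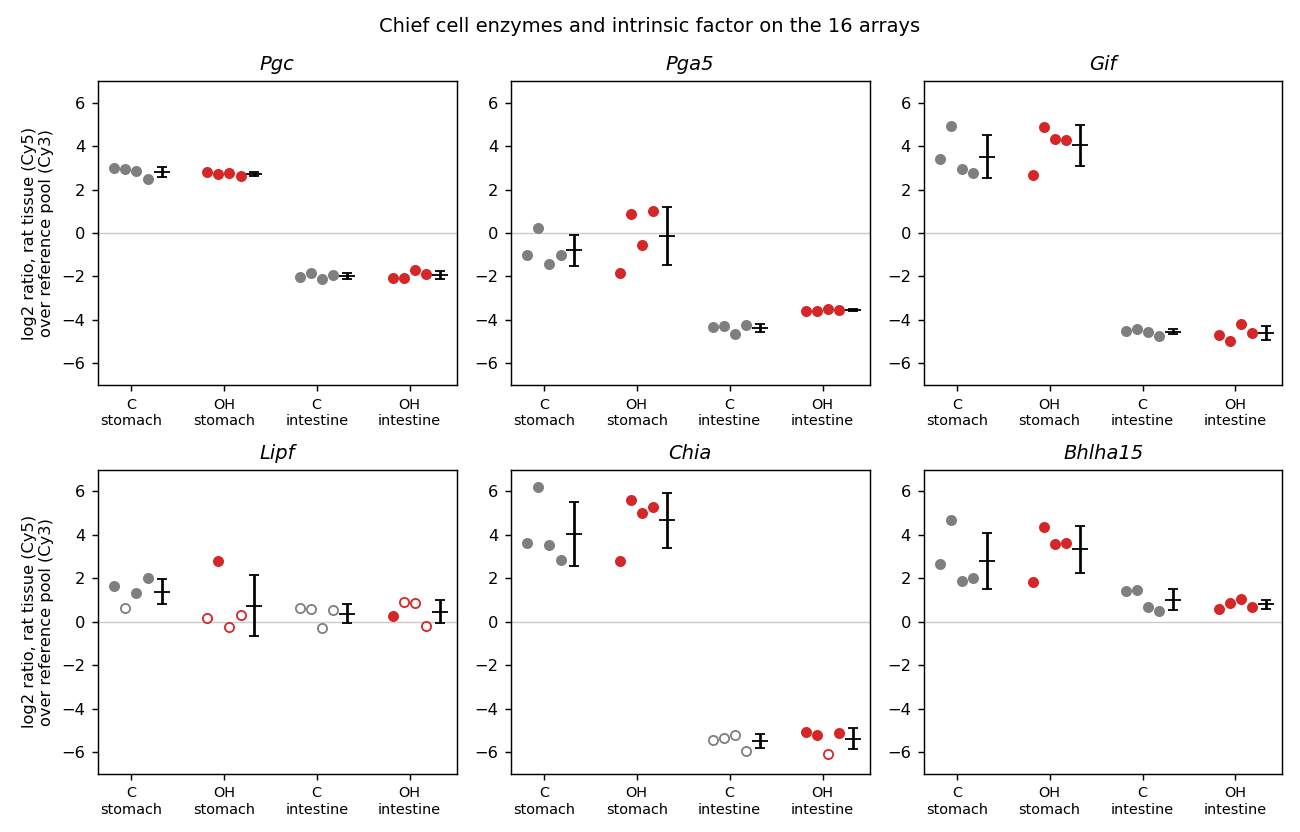
Log2 ratio of Cy5 (tissue of 1 rat) to Cy3 (reference pool) for each gene on the 16 arrays, by group, C in grey and OH in red. Filled points are arrays on which the probe was well above background in Cy5, open points those on which it was not, and the bar gives the mean and SD of 4 arrays. Pgc lay within 2.51 to 2.99 on every stomach array, whereas Gif, Chia, Bhlha15 and Pga5 each spread over more than 2 log2 units there.

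The pepsinogens come first. Pgc encodes progastricsin (pepsinogen C), an acid protease precursor. Its log2 ratios were 2.99, 2.93, 2.84 and 2.51 in C stomach and -2.05, -1.84, -2.12 and -1.92 in C middle intestine. In OH rats they were 2.81, 2.73, 2.75 and 2.61 in stomach and -2.07, -2.08, -1.71 and -1.89 in intestine. Every stomach array thus stood far above every intestinal array, and the stomach arrays were close to each other. The log2 difference was 4.80 (SE 0.12, adjusted p = 1.02e-12) in C rats, which is 27.8-fold, and 4.66 (SE 0.12, adjusted p = 2.80e-12) in OH rats.

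Pga5 encodes pepsinogen A5, which the RefSeq table also lists as Pepf, a name of the fetal form. Its log2 ratios were -1.01, 0.23, -1.41 and -0.99 in C stomach and -4.32, -4.29, -4.64 and -4.23 in C middle intestine. In OH rats they were -1.85, 0.87, -0.55 and 1.02 in stomach and -3.59, -3.59, -3.49 and -3.54 in intestine. The stomach ratios were scattered around and below 0, while the intestinal ratios were tight within each group. The difference was 3.57 (SE 0.50, adjusted p = 4.98e-05) in C rats and 3.42 (SE 0.50, adjusted p = 7.96e-05) in OH rats. Pga5 was well above background in Cy5 on all 8 intestinal arrays, with processed Cy5 signals of 13699 to 28348, against 73398 to 246233 in stomach.

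Gif encodes gastric intrinsic factor, the carrier that takes vitamin B12 to its receptor in the ileum. Its log2 ratios were 3.40, 4.93, 2.96 and 2.78 in C stomach and -4.50, -4.44, -4.54 and -4.72 in C middle intestine. In OH rats they were 2.69, 4.88, 4.32 and 4.29 in stomach and -4.69, -4.96, -4.19 and -4.59 in intestine. The difference was 8.07 (SE 0.46, adjusted p = 4.73e-09), or 268-fold, in C rats and 8.65 (SE 0.46, adjusted p = 2.44e-09) in OH rats. The intestinal Cy5 signals of 41.3 to 90.4 were low but still marked as well above background on all 8 arrays.

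Chia encodes acidic mammalian chitinase, which cuts the chitin of insects and fungi and works at gastric pH. Its log2 ratios were 3.61, 6.19, 3.56 and 2.85 in C stomach and 2.79, 5.60, 5.00 and 5.28 in OH stomach. In the intestine they lay between -6.11 and -5.10. Chia was not well above background on any of the 4 C intestinal arrays, so that its level there is only a bound. The log2 ratios of C stomach and C middle intestine differed by 9.55 (SE 0.66, adjusted p = 3.69e-08), and the size depended on the scale, with 7.02 to 10.07 over the 27 alternatives. In OH rats it was well above background on 3 of 4 intestinal arrays, each time by only 1 of its 2 spots. The log2 difference in OH rats was 10.05 (SE 0.66, adjusted p = 2.23e-08), and it too stands on intestinal signals near background.

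Bhlha15 (Mist1) encodes the bHLH transcription factor that sets up the granules and rough endoplasmic reticulum of secretory cells, in chief cells as well as in pancreatic acinar and plasma cells. Its log2 ratios were 2.65, 4.67, 1.89 and 2.00 in C stomach and 1.41, 1.47, 0.68 and 0.51 in C middle intestine. In OH rats they were 1.82, 4.37, 3.59 and 3.61 in stomach and 0.60, 0.88, 1.06 and 0.70 in intestine. It was the only one of the 5 genes with intestinal ratios above 0, and it was well above background on all 16 arrays. The difference was 1.78 (SE 0.57, adjusted p = 0.0201) in C rats and 2.54 (SE 0.57, adjusted p = 0.00278) in OH rats. The C call was lost without C stomach 2 (log2 difference 1.16, adjusted p = 0.0548), without C middle intestine 4 (1.61, adjusted p = 0.0532) and in the test of the methods (adjusted p = 0.0598), and over the 27 alternatives the adjusted p ran from 0.00200 to 0.0598. Of the plasma cell list, 3 of 6 probes passed the filter, 1 was called higher in C stomach and 1 lower, and the list mean ranged from -0.49 to 0.78 over the 8 intestinal arrays. The pancreatic acinar list had a mean of -0.77 to 0.02 in C stomach and -3.78 to -3.33 in C middle intestine. In C stomach 7 of its 8 kept genes were called higher, against 22.7% of all probes (44.9% in either direction). Among them Cela1 and Ptf1a were well above background on no intestinal array, so the filter itself favoured their direction. The part of either cell type in the Bhlha15 ratios was not tested.

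Lipf encodes an acid lipase of the gastric type, which in the rat is known chiefly from the serous glands of the tongue. Only 6 of its 32 spots were well above background in Cy5, on 3 C stomach arrays, 1 OH stomach array and 1 OH intestinal array. Its processed Cy5 signals were 2.65 to 15.1 in stomach and 3.13 to 7.92 in intestine, and its 2 spots differed by up to 1.92 log2 units on 1 array. Its log2 ratios were 1.63, 0.62, 1.31 and 2.00 in C stomach and 0.63, 0.58, -0.27 and 0.53 in C middle intestine, which overlapped, with an exact two-sided permutation p of 0.0571. A difference between OH and C was not detectable at these signals.

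**Figure D2:**
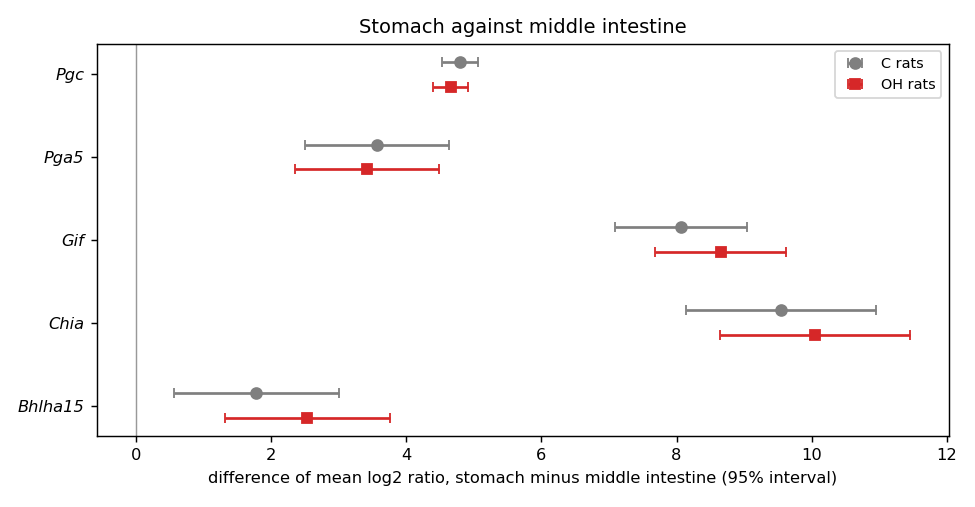
Difference of the mean log2 ratio between stomach and middle intestine for the 5 genes that passed the filter, with the 95% interval of the limma fit, in C rats (grey circles) and OH rats (red squares), 4 arrays per group. All 10 intervals lie above 0, from Bhlha15 in C rats (0.56 to 3.01) to Chia in OH rats (8.64 to 11.45). The Chia value in C rats stands on intestinal signals not well above background, and that in OH rats on intestinal signals near it.

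Among the 8 stomach arrays the genes fell into 2 kinds. Gif, Chia and Bhlha15 had the same 4 arrays on top (C stomach 2 and OH stomach 2, 3 and 4) and the same 4 below (C stomach 1, 3 and 4 and OH stomach 1). Chia spanned 10.6-fold over the 8 arrays, Bhlha15 7.19-fold and Gif 4.73-fold. Pga5 spanned 7.32-fold and had the same 4 arrays on top. Pgc spanned 1.40-fold, with C stomach 1 highest and C stomach 4 lowest.

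The size of this spread set 4 of the genes apart from most of the array. The SD within the stomach groups was 1.37 for Chia, 1.19 for Bhlha15, 1.08 for Pga5 and 0.96 for Gif, against a median of 0.25 over all kept probes, and between 97.2% and 99.3% of probes had a smaller SD than these. Pgc had an SD of 0.16, and 28.3% of probes had a smaller one. After centring on the 8 arrays, Gif and Bhlha15 differed from each other by a root mean square of 0.22 log2 units, Chia and Bhlha15 by 0.31, and Gif and Chia by 0.40, whereas Pgc differed from the others by 0.87 to 1.22. The 2 spots of a probe differed on a stomach array by a median of 0.03 to 0.08 log2 units for these 5 genes, so that the spread lay between arrays and not between spots.

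The marker lists of other parts of the stomach were read on the same arrays. The striated muscle list (10 genes) had means of 3.22, 2.90 and 3.56 on C stomach 1, 3 and 4 and 1.24 on OH stomach 1. On the 4 arrays with high Gif it was -0.88, -0.34, -0.44 and 0.88. The antrum list (Gast and Pdx1) was 1.36 to 2.31 on the 4 arrays with low Gif, and -2.95 on C stomach 2, 0.33 on OH stomach 2, 1.65 on OH stomach 3 and -2.76 on OH stomach 4. The 4 arrays with low Gif were thus the 4 with the highest striated muscle means, and 1 array with high Gif, OH stomach 3, had an antrum mean as high as the low arrays. The parietal cell list moved less, with means of 3.00 to 3.56 on the arrays with high Gif and 2.33 to 2.87 on the others. The summed Cy5 signal of the striated muscle list was 1678 to 171015 in C stomach and 2359 to 17163 in OH stomach. The part of tissue composition in the ratios of the chief cell genes was not tested.

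**Figure D3:**
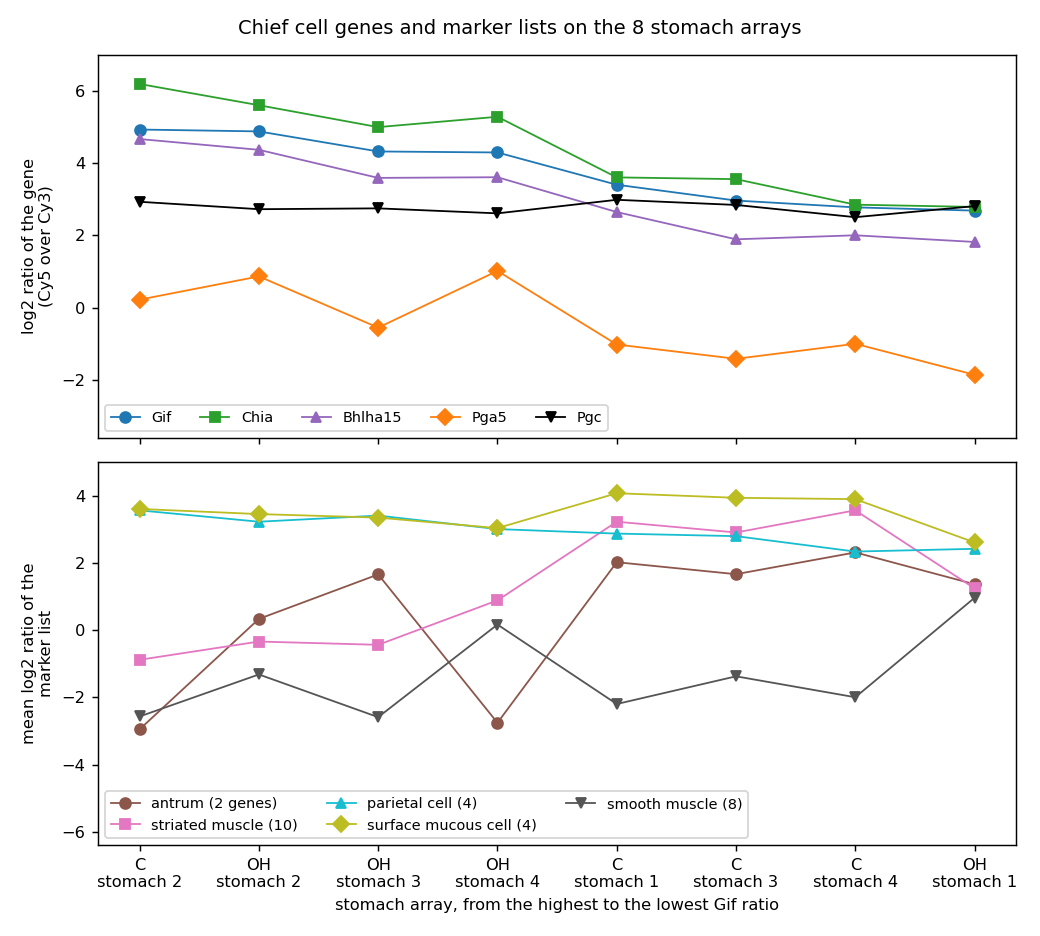
Log2 ratios of 5 chief cell genes (upper panel) and mean log2 ratios of 5 marker lists (lower panel) on the 8 stomach arrays, ordered from the highest to the lowest Gif ratio. Gif, Chia and Bhlha15 drop between the 4th and the 5th array while Pgc stays between 2.51 and 2.99, and the striated muscle mean is 0.88 or lower on the first 4 arrays and 1.24 or higher on the last 4.

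Obestatin was then compared with saline in stomach. None of the 5 genes was called (0 of 5, adjusted p from 0.663 to 0.822), and none of all 21174 probes was called either (percent called 0), while 10.6% had an unadjusted p under 0.05. The mean log2 ratio of Gif was 4.04 ± 0.94 (SD, n = 4) in OH stomach and 3.52 ± 0.98 (SD, n = 4) in C stomach, a log2 difference of 0.53 with a 95% interval of -0.45 to 1.50. Chia differed by 0.62 (interval -0.79 to 2.02), Bhlha15 by 0.54 (-0.68 to 1.77) and Pga5 by 0.67 (-0.40 to 1.74). The groups overlapped for all 5, where 7.6% of all probes did not overlap, and the exact two-sided permutation p of 4 against 4 arrays was between 0.4 and 0.571, where the smallest p possible is 0.0286. With log ratios scaled to the same spread between arrays, the differences of Gif and Chia turned to -0.070 and -0.046. Without C stomach 2 those of Gif, Chia, Bhlha15 and Pga5 were 1.00, 1.33, 1.17 and 1.01, without OH stomach 1 they were 0.98, 1.24, 1.05 and 1.25, and none was called in either case, although 311 of all probes were without C stomach 2.

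Pgc gave the narrowest interval. Its mean was 2.72 ± 0.08 (SD, n = 4) in OH stomach and 2.82 ± 0.22 (SD, n = 4) in C stomach, a log2 difference of -0.09 with an interval of -0.35 to 0.17. The interval does not cover the choice of processing. Over the 27 alternatives the Pgc difference ran from -0.537 to -0.036, and it was called in none. With 1 array left out it ran from -0.196 to -0.036. Both channels were brighter in OH at its spots, the mean log2 Cy5 by 0.33 and the mean log2 Cy3 by 0.42, the latter without overlap between the groups.

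The other tissue lists moved with the groups by values that also missed the threshold. Between OH and C stomach the median log2 difference was -2.20 over the 10 striated muscle genes, 1.42 over the 8 smooth muscle genes, -0.95 over the 4 surface mucous cell genes, -0.64 over the 9 forestomach genes and 0.06 over the 4 parietal cell genes, with no gene of these lists called. The smooth muscle mean was 0.96 on OH stomach 1 and 0.16 on OH stomach 4, but -1.32 and -2.59 on the other OH arrays, against -2.57 to -1.38 in C stomach. Tff2, the trefoil factor of mucous neck cells, which lie next to chief cells in the gland, differed by -1.35 (adjusted p = 0.461).

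**Figure D4:**
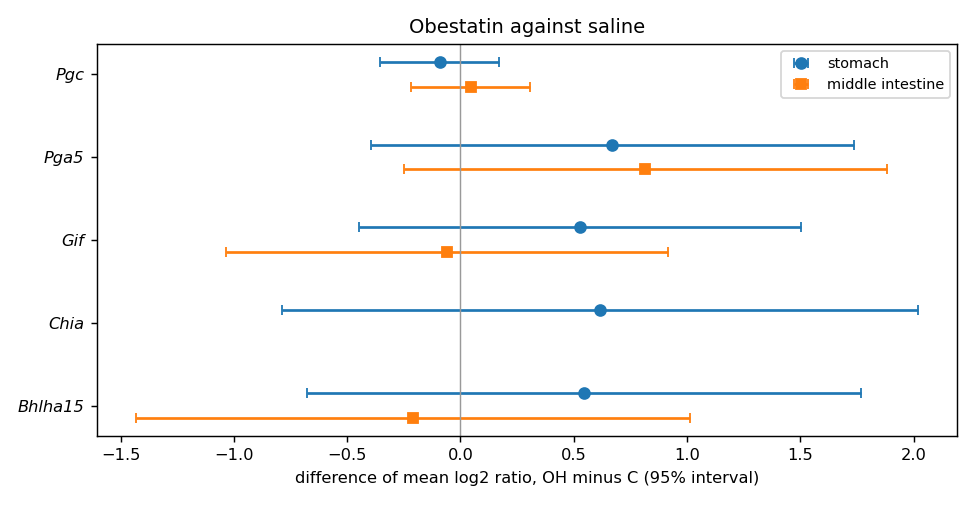
Difference of the mean log2 ratio between OH and C rats with the 95% interval of the limma fit, in stomach (blue circles) and middle intestine (orange squares), 4 arrays per group. Every interval holds 0, and that of Pgc is the narrowest in both tissues. Chia in the intestine is left out, because it was not well above background in C rats.

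In the middle intestine none of the 5 genes was called between OH and C (0 of 5, adjusted p from 0.638 to 0.994), against 0.368% of all probes. Pgc differed by 0.05 (interval -0.22 to 0.31), Gif by -0.06 (-1.03 to 0.92) and Bhlha15 by -0.21 (-1.43 to 1.01), and the arrays of the groups overlapped for each. The sign of the small differences of Pgc and Gif was not stable, with -0.050 for Pgc from Cy5 alone and 0.15 for Gif after scaling of the spread. Chia differed by 0.11 (adjusted p = 0.990), with 3 of 4 OH arrays and no C array well above background, and with normexp and loess the sign turned (-0.15). On each of those 3 arrays only 1 of the 2 Chia spots was flagged. Raw Cy5 signals overlapped, with 50.4 to 67.1 in OH and 57.7 to 62.5 in C intestine.

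Pga5 was the exception in that the groups did not overlap. All 4 OH intestinal ratios (-3.59 to -3.49) stood above all 4 C ratios (-4.64 to -4.23), a log2 difference of 0.82 or 1.76-fold, with an exact two-sided permutation p of 0.0286, the smallest that 4 against 4 arrays can give. Of all probes 5.86% did not overlap between these groups, 3.72% with OH higher. The limma fit over all 16 arrays did not call it (SE 0.50, adjusted p = 0.638), its SE being set by the spread in stomach, and with only the 8 intestinal arrays the SE was 0.13 and the adjusted p 0.0903. From Cy5 alone the difference was 0.34 (adjusted p = 0.764). The 2 channels both took part in the ratio: the mean Cy5 was higher by 0.50 in OH and the mean Cy3 lower by 0.31. Cym, the gene of chymosin, showed the same picture, with ratios of -3.17 to -3.06 in OH and -4.16 to -3.76 in C intestine and a log2 difference of 0.82 (adjusted p = 0.537). The Cym probe ends in a CA repeat, and its values are uncertain for the reason given below. All 14 probes with such a repeat, Cym included, were higher in OH intestine, by 0.29 to 0.82 (median 0.50, against 0.0011 for all probes), with none called. Marker lists were read on the same arrays, with no gene called. The median log2 difference between OH and C intestine was 0.45 over the 4 surface mucous cell genes and 0.36 over the 4 parietal cell genes, of which Kcne2 was at -0.13 and Muc5ac and Slc26a7 were not well above background on any intestinal array. It was 0.68 over the 8 pancreatic acinar genes and 0.33 over the 11 enterocyte genes, and the part of these cells in the Pga5 difference was not tested.

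The OH effect was compared between the tissues for the 4 genes well above background in both. The difference of the effects, stomach minus intestine, was 0.75 for Bhlha15 (interval -0.97 to 2.48), 0.59 for Gif (-0.79 to 1.97), -0.15 for Pga5 (-1.65 to 1.36) and -0.14 for Pgc (-0.51 to 0.23). None of the 4 was called (adjusted p from 0.927 to 0.983), nor was any of all probes (percent called 0, with 5.85% at an unadjusted p under 0.05).

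The reference channel itself bears on the size of these ratios. The pool was one and the same, yet its Cy3 signal at a gene moved with the tissue in Cy5. At the Pgc spots the processed Cy3 signal was 25221 to 33838 with C stomach and 10226 to 13469 with C intestine. At the Pga5 spots it went the other way, with 144085 to 226649 against 280584 to 361257. The Pgc ratio was thus divided by a larger, and the Pga5 ratio by a smaller, reference in stomach, and from Cy5 alone scaled to the 75th percentile the C differences between tissues were 6.21 for Pgc and 2.93 for Pga5. No spot of the 6 genes was saturated in either channel. The mean of the 16 linear ratios was 14.4 for Chia, 8.22 for Gif, 6.46 for Bhlha15, 3.56 for Pgc and 0.493 for Pga5, where the median of all probes was 1.15 and 0.685% of probes were above 5. The cause of these means, and of the Cy3 shifts, was not tested.

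The relatives and partners of these genes were read from lists. For the counts below, 22.7% of all probes were called higher in C stomach than in C middle intestine, and 44.9% in either direction. In OH rats 19.2% were called higher in stomach. Of 7 pepsin family proteases on the array besides the pepsinogens, all kept, 5 were called higher and 1 lower in C stomach than in C middle intestine, and none was called between OH and C in either tissue (smallest adjusted p 0.316 in stomach and 0.537 in intestine). Ctse, cathepsin E of the surface epithelium, differed by 6.91 (SE 0.23, adjusted p = 2.24e-11). Cym differed by 4.28 (SE 0.42) and Bace2, a membrane aspartic protease, by 3.37 (SE 0.24), while Napsa, napsin A, was lower in stomach by -2.18 (SE 0.19). The list median was 1.43.

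Of 12 lipases and their cofactors on the array 8 were kept, and 7 were called higher and 1 lower in C stomach (median 3.25), with none called between OH and C. Lipm, Lipn and Pnliprp1 passed the filter only through the stomach groups, so the filter itself favoured their direction in this count. Clps, pancreatic colipase, differed by 5.95 (SE 0.65), and its 8 stomach ratios had the same 4 arrays on top as Gif and Chia: 1.49, 3.53, 0.72 and 0.07 in C and 0.23, 3.29, 2.60 and 1.85 in OH stomach. Lpl, lipoprotein lipase, differed by 4.41 (SE 0.22). On a bound taken from Cy5 after quantile scaling of the spots' average intensity between arrays (Aquantile), which without a dye swap is open to dye bias, Lipn, a lipase of keratinised epithelium, was at least 9.76-fold and Pnliprp1, a relative of pancreatic lipase, at least 10.5-fold higher in C stomach, both being not well above background in C intestine. Of 3 chitinase relatives kept, only Chit1, the macrophage chitinase, was called, and it was lower in C stomach by -1.71 (SE 0.40), on the other side of Chia.

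The cobalamin genes went both ways. Of 15 kept, 5 were called higher and 3 lower in C stomach (median 0.10), against 22.7% of all probes called higher and 44.9% in either direction. None was called between OH and C (smallest adjusted p 0.632 in stomach and 0.628 in intestine). The receptor of the intrinsic factor and cobalamin complex is made of cubilin and amnionless. Amn, its membrane anchor, was lower in C stomach by -3.36 (SE 0.40), and Cubn was lower by -3.16 (SE 0.75), with 3 of 4 arrays of C middle intestine and no array of C stomach well above background. Cubn passed the filter only through OH middle intestine, so the filter favoured its direction in the count. Cd320, the receptor for transcobalamin on cells, was higher in stomach by 1.33 (SE 0.17) and Abcd4, a lysosomal transporter, lower by -1.28 (SE 0.27). Intrinsic factor and its receptor thus stood on opposite sides of the comparison.

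Of 16 secretagogue ligands and receptors 11 were kept, 7 were called higher and 3 lower in C stomach (median 1.49), and none was called between OH and C. Vipr1, a receptor of vasoactive intestinal peptide, was lower in stomach by -6.50 (SE 0.15), and the intestinal hormones Cck and Sct were lower by -4.72 (SE 0.32) and -4.58 (SE 0.30). Cckbr, the gastrin receptor, was higher by 5.48 (SE 0.48), with 1 of 4 C intestinal arrays well above background. It passed the filter only through the stomach groups, so the filter favoured its direction in the count. Chrm1, Chrm5, Cckar, Hrh2 and Grpr, other receptors by which acetylcholine, cholecystokinin, histamine and bombesin peptides act, did not pass the filter.

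Of 17 kept genes of regulated secretion 13 were called higher in C stomach and none lower (median 1.03), and 11 in OH rats, with none called between OH and C. Tmed6 passed the filter only through the stomach groups, so the filter favoured its direction in these counts. Pdia2, a protein disulphide isomerase, differed by 7.97 (SE 0.40), Tmed6 by 4.81 (SE 0.45, with 1 of 4 C intestinal arrays well above background), Sytl1, a granule tethering protein, by 4.31 (SE 0.16), and Rab27b, a granule GTPase, by 2.95 (SE 0.22). Pdia2 and Tmed6 were highest on C stomach 2 (4.51 and 3.78) and OH stomach 2 (4.09 and 3.61), the arrays with the highest Gif, and Sytl1 was at 2.38 to 2.56 in C stomach and at 1.56, 2.32, 2.22 and 1.90 in OH stomach.

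The genes most like each of the 5 over the 16 arrays were sought among 13187 named probes by the root mean square difference of centred log2 ratios, a likeness that the step between tissues dominates. For Gif they were Rmt1 (0.37), Kcne2, a potassium channel subunit of parietal cells (0.47), and Pdia2 (0.49). For Chia they were Rmt1 (1.05), Gkn2 and Pdia2 (1.13), so that no named probe was as close to it as to Gif. For Pgc they were Hsd17b3 (0.21), Fa2h (0.23) and Aldh3a1 (0.26), and for Bhlha15 Cyp27b1 (0.30), Lypd2 (0.43) and Gp5 (0.43).

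For Pga5 the nearest were Glra2 (0.28), a glycine receptor subunit, Ptprn2 (0.28), a protein of neuroendocrine granules, and Tmem47 (0.29), a junction protein. Their probes are shown with that of Cym because all 4 end in the same simple repeat, set in capitals. They lie at chr2:202681433-202681492 (Cym, minus strand), chrX:49977287-49977346 (Glra2, plus strand), chr6:144548969-144549028 (Ptprn2, plus strand) and chrX:67545686-67545745 (Tmem47, plus strand) of rn4. The repeat runs over 26, 32, 39 and 29 bases in this order.
Cym: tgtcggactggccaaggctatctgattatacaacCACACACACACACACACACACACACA
Glra2: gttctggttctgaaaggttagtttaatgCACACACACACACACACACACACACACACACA
Ptprn2: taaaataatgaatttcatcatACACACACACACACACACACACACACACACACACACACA
Tmem47: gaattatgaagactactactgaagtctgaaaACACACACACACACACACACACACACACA

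Every probe of the array with such a repeat behaved in this way. Of 30367 probes 14 held an alternating CA run of at least 20 bases, for 14 gene names, and all 14 passed the filter. All 14 were called higher in C stomach than in C middle intestine and again in OH rats, against 22.7% of all probes in C and 19.2% in OH rats. The C differences were from 3.04 to 4.28 with a median of 3.60, against -0.01 for all probes. Because they share the repeat, the 14 may not be 14 separate signals. All 14 were also higher in OH than in C stomach, by 0.61 to 0.72 (median 0.67, against 0.0067 for all probes), with none called. Their median ratio on the stomach arrays was -0.08, 1.91, -0.32 and 0.06 in C and -0.26, 1.61, 0.89 and 1.96 in OH, and on the intestinal arrays it lay between -3.42 and -2.42. Array by array this is the course of Cym, itself 1 of the 14, with 0.11, 1.75, -0.36 and -0.18 in C stomach and -0.08, 1.79, 0.96 and 1.53 in OH stomach. The probe of Pga5 has no CA run above 5 bases. Whether RNA of another gene with the repeat bound to these 14 probes was not tested, and the values of Cym, Glra2, Ptprn2 and Tmem47 are uncertain for that reason.

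**Figure D5:**
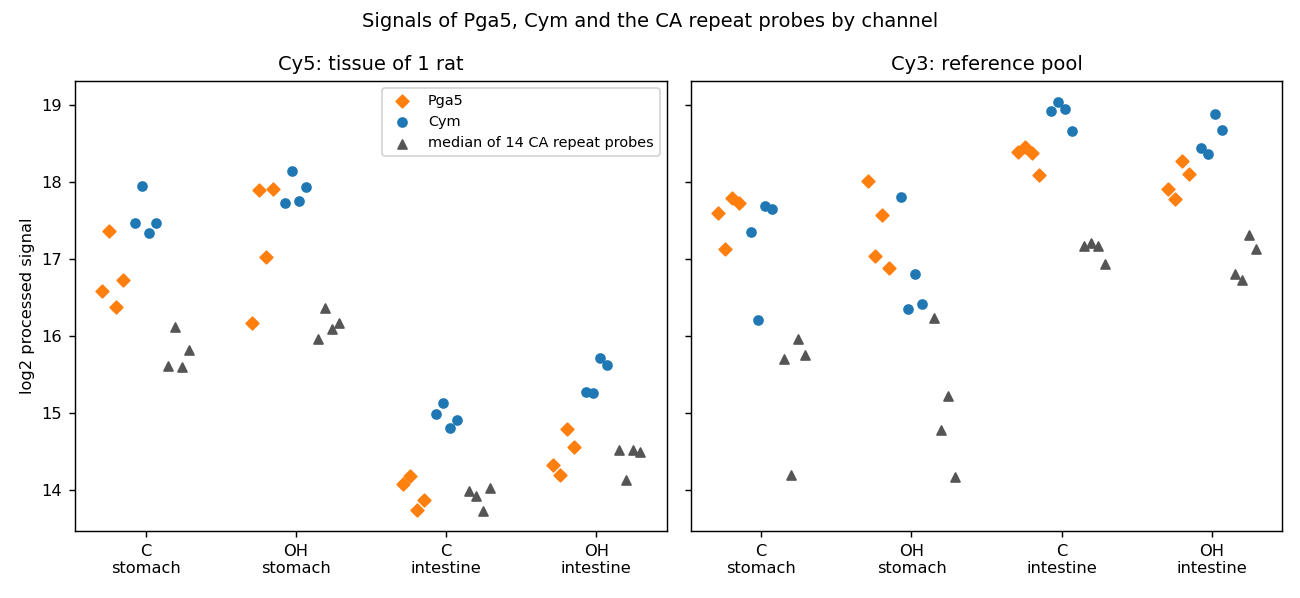
Log2 processed signal in Cy5 (left, tissue of 1 rat) and Cy3 (right, the common pool) for Pga5 (diamonds), Cym (circles) and the median of 14 probes with a CA run (triangles), by group, 1 point per array. Cym is 1 of the 14 probes. In Cy5 all 3 are higher in stomach than in intestine, and in Cy3, where the same pool was used on every array, Cym and the repeat probes are lower with stomach than with intestine on all arrays.

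The promoters of 4 genes are printed because Bhlha15, Gif and Chia ran together over the stomach arrays while Pgc did not, and because Bhlha15 is of the bHLH class, whose members bind E boxes (CANNTG, the same on both strands). The 250 bases before the start are from RefSeq, on build GRCr8, with each E box in capitals. They are chr12:15538300-15538549 for Bhlha15 on the minus strand, chr1:218030506-218030755 for Gif on the plus strand, chr2:196302437-196302686 for Chia on the plus strand and chr9:20763221-20763470 for Pgc on the minus strand.
Bhlha15: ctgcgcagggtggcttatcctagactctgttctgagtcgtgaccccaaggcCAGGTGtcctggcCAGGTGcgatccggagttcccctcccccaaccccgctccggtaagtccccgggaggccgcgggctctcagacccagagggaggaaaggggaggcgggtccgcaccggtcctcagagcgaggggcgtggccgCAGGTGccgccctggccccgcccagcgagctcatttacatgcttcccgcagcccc
Gif: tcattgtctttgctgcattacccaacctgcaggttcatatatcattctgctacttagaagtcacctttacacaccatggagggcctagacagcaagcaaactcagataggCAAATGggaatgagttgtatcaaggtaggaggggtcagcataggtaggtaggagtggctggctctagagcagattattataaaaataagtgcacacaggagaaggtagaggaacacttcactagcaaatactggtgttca
Chia: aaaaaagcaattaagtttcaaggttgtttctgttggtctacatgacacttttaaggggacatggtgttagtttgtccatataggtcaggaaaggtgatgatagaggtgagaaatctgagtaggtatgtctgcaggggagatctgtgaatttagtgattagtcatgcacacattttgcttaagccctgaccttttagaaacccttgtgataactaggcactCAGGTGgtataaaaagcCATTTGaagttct
Pgc: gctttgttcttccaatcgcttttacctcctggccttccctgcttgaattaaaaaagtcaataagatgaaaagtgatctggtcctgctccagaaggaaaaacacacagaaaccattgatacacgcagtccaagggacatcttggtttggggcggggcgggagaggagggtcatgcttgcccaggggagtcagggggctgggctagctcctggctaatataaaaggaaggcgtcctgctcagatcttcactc

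The promoter of Bhlha15 held 3 E boxes, that of Chia 2, those of Gif and Pga5 1 each and that of Pgc none. Of 33469 rat promoters of this length 65.5% held at least 1 and 30.8% at least 2, so that these counts set no gene apart. The 3 boxes of Bhlha15, 1 of Chia and that of Pga5 read CAGGTG, and neither CAGCTG, held by 12.0% of all promoters, nor CATATG, held by 3.63%, was in any of the 5. TATAAA, on either strand, was in the promoters of Gif, Chia and Pgc and in 12.9% of all promoters. These matches are letters in a window, and no binding was measured.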

How the data were processed

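The 16 two-colour arrays (Agilent SurePrint G3 Rat GE 8x60K) were used. Per the labels and methods, RNA of 1 rat's tissue was labelled with Cy5 and the common pool with Cy3, with no dye swap. For each array the authors deposited Feature Extraction output (version 10.7.3.1 in the submitters' processing notes, 10.10.1.1 in the file headers) with raw and processed intensity per spot, after background subtraction and Lowess dye normalization. They also deposited a table of log10 ratios, which equals the scanner log10 ratios for 15 arrays. In the file of OH stomach 1, saved with rounded values, the gene names of 68 spots had turned into dates, so names were taken from the other arrays.

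From the processed intensities log2(Cy5/Cy3) was taken per spot without control spots and outlier flags, and spots of a probe were averaged. No scaling between arrays was applied. A probe counted as well above background on an array where 1 or both of its 2 spots did (with more spots, at least as many of them as not), and it was kept if that held in Cy5 on each of the 4 arrays of any group, with 3 or more values in every group. This left 21174 of 30367, of which 43 lacked a value on at least 1 array and were fitted without it. Differences were fitted with limma 3.58.1 (lmFit, eBayes, R 4.3.3) over the 4 groups with Benjamini-Hochberg adjustment over all probes kept, at 0.05. The number of arrays limits the precision. Where a probe was not well above background on any array of a group, a bound was computed as the mean Cy5 of the brighter group, after Aquantile scaling, over the dimmer group's mean of the higher of the lowest well-above-background signal and its own. Exact permutation tests and tables were made in Python 3.11.15. The fits were tested on simulated ratios. The 6 genes, the gene lists and the markers were chosen with earlier results of these data known. Named besides the 6 genes were up to 4 genes per list with the largest called difference and the 3 named probes nearest to each kept gene; Tff2, Gast and Clps array values and the CA repeat were looked at after the values were seen. Replicate numbers were not used to pair the samples in the main fit. Alternatives were other background correction and normalization, Cy5 alone, no filter, outlier spots kept, only 2 groups, a replicate block, the deposited table, the methods' ANOVA, 1 probe per gene, scaling of the spread (added after seeing the data) and each array left out.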

Additional observations from a re-analysis of the deposited data

How the results depend on the processing

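The 5 tissue differences in OH rats kept their direction and call under all 27 alternatives, as did those in C rats except Bhlha15, whose call was lost in 3. None of the 5 genes that passed the filter was called between OH and C, nor any of the 4 for the difference of the OH effect, under the alternatives run. Lipf is not among them. Signs of small differences changed: with the spread scaled between arrays, OH minus C was -0.070 for Gif and -0.046 for Chia in stomach and 0.15 for Gif in middle intestine, and the Gif difference of effects was -0.22; it was -0.050 for Pgc in middle intestine from Cy5 alone and -0.15 for Chia in middle intestine with normexp and loess. The cause was not tested. Leaving out 1 array at a time gave ranges that crossed 0 in middle intestine for Pgc (-0.030 to 0.093), Gif (-0.20 to 0.059) and Chia (-0.041 to 0.36), and for the Pga5 difference of effects (-0.53 to 0.43). The number of genes called in C stomach against C middle intestine was then 4 to 5.

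The number of all probes called moved more. For OH against C in stomach it was 0, and 58 from Cy5 alone, 639 with no filter, 2 with the deposited table, 1 with 1 probe per gene, 218 with the spread scaled, 709 with the methods' ANOVA and Tukey step, and 0 to 311 with 1 array left out. In middle intestine it was 78, and 648 from Cy5 alone, 1378 with no filter, 1 with the arrays of the 2 groups only, 20 with 1 probe per gene, 936 with the methods' ANOVA and Tukey step, and 12 to 88 with 1 array left out. In the ANOVA and Tukey step only the ANOVA over the 4 groups was adjusted over probes, and a tissue difference can pass it. The Tukey p between 2 groups was not adjusted over probes, so 709 and 936 cannot be set beside the limma counts. For the difference of effects it was 0, and 0 to 68 with 1 array left out.

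Stomach and intestine may come from the same rats, but the labels do not tie them. Between the tissues the residual correlation of arrays with the same number was 0.14, 0.17, 0.058 and 0.25 in C rats. In OH rats it was -0.12, 0.20, 0.023 and 0.32. Some of these arrays correlated best with their own number and some did not, so pairing of the tissues by rat is not settled. Between OH and C arrays, which are of different rats, it was from -0.40 to 0.51. It was not above 0.1 for every pair in any comparison. A replicate block lowered the probes called between OH and C in middle intestine to 40 and changed no call of the 5 genes. Aquantile leaves ratios as they are. Signal over background limits Lipf in both tissues and Chia in the intestine.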
